A study of Mus musculus with 2 samples.

Results

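The genes described here are 20 aminoacyl-tRNA synthetase genes and 12 amino acid transporter genes. They are 32 in all of the 30163 genes named on the arrays. The 20 synthetase genes encode cytosolic enzymes, and Gars and Kars encode the mitochondrial enzyme as well. A probe was taken where the gene name in the scanner files was one of the 32 symbols, or a synthetase symbol with the newer suffix, which gave 41 probes. RNA came from mononuclear cells of the bone marrow, which hold many immune and blood-forming cell types. They were flushed from femurs of C57/Bl6J mice aged 2 to 4 months, in IMDM medium with 2% FBS. The NYT group is 1 array of cells cultured with the herbal drug ninjin'yoeito and collected at day 11, and the control group is 1 array of cells cultured with no treatment and collected at the same day. The sources used here give no dose and do not say whether the cultures shared animals. With 1 array per culture there was no test, and each value below compares these 2 arrays.

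Aminoacyl-tRNA synthetases join each amino acid to its transfer RNA, and so supply the ribosome with its substrates. Several of them sit together in the cytosolic multi-synthetase complex, and the others work outside it. Amino acid transporters bring the same amino acids into the cell. When an amino acid is scarce, uncharged transfer RNA activates the kinase GCN2 (Eif2ak4), phosphorylated eIF2 favours translation of the transcription factor ATF4, and ATF4 induces many synthetases and transporters through C/EBP-ATF response elements.

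RefSeq promoter sequences on GRCm38.p6, 250 bases before to 50 after each annotated start, were read for 21 of the 32 genes. No promoter was read for Cars, Hars, Lars, Nars, Rars, Vars, Wars, Slc1a5, Slc7a3, Slc7a5 and Slc38a1. Their absence here does not show that they lack an annotated promoter. The synthetase and transporter shares and medians by promoter match leave them out. The core of the C/EBP-ATF element was searched as TGATGNAA on both strands, which reads TTNCATCA on the other strand. It was found for 5 of 13 synthetase genes (38.5%) and 2 of 8 transporter genes (25.0%), against 4.51% of all 27025 genes with a promoter in the table. These shares describe letters in a window and name no bound site. An E-box, CACGTG, lay in the promoters of Aars, Farsb, Iars and Tars, 4 of 21 genes (19.0%) against 8.09% of all genes, and overlapped no C/EBP-ATF match. The stretches below hold the matches, in capitals, in the 4 other synthetase genes and the 2 transporter genes with a match, each printed 5′ to 3′ along the gene's strand. Slc7a7 has 5 promoters in the table, and the stretch shown, from the first, holds 2 matches, of which the one nearer its end also lies in the second promoter.
Gars, chr6:55037951-55037998, plus strand: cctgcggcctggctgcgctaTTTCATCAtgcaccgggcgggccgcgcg
Iars, chr13:49682117-49682164, plus strand: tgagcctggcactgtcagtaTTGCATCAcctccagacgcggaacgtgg
Tars, chr15:11399646-11399693, minus strand: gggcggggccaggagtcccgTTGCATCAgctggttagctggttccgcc
Yars, chr4:129189886-129189933, plus strand: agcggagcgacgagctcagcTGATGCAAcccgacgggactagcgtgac
Slc1a4, chr11:20332690-20332737, minus strand: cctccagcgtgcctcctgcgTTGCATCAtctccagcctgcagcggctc
Slc7a7, chr14:54417918-54418105, minus strand: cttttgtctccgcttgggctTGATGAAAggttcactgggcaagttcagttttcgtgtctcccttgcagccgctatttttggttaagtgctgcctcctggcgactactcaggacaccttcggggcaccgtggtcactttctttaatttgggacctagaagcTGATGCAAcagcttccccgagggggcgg

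The promoters of the 3 genes with the largest positive differences in the comparison below are given whole, since they differ in this feature. That of Aars held 2 matches, again in capitals, while those of Sars and Slc3a2 held none in this window.
Aars, chr8:111033592-111033891, plus strand: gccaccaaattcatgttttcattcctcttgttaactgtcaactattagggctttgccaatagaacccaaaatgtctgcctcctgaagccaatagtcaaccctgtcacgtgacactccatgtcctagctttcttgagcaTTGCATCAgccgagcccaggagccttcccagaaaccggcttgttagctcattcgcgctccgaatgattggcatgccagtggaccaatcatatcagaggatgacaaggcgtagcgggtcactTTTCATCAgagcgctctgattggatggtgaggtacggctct
Sars, chr3:108445210-108445509, minus strand: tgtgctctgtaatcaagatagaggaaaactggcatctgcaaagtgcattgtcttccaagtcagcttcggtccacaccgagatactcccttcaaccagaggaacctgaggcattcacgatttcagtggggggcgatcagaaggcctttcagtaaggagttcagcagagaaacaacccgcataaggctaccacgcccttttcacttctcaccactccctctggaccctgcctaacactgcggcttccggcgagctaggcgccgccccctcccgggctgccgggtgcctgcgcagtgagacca
Slc3a2, chr19:8713848-8714147, minus strand: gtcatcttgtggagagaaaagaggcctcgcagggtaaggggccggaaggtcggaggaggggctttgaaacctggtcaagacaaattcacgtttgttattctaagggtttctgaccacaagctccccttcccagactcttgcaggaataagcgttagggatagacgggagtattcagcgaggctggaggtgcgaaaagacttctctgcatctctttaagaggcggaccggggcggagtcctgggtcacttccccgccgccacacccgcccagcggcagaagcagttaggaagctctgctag

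The 75th percentile of probe intensity was 728 on the NYT array and 1476 on the control array, and 57.7% and 62.2% of 39421 probes were well above background. Each array was scaled to its own 75th percentile, and a difference is the log2 intensity on the NYT array minus that on the control array after scaling. Where several probes of a gene passed the background flag on both arrays, the brightest stood for it. This left 16996 measured genes, with a median difference of 0.29. Leaving out the scaling moved the median of all genes by -1.02, so directions near 0 depend on it and values are also read against that median. As scaled, 11.2% of measured genes were higher on the NYT array by 2-fold or more and 11.0% were lower by as much. These were 1908 higher and 1868 lower genes, against 211 and 6190 with no scaling, 950 and 2359 after loess, and 164 and 7529 when scaled to spike-in RNA. Spike-in scaling took the median over the detected spike-in probes. Of these, E1A_r60_a107 differed by 2.18 unscaled and the others by -0.13 to 0.24. Spots of probes printed many times gave a median SD of 0.05 for a log2 difference (228 probes), which covers spot noise and not cultures or hybridisations. As a check of the mixture, 37 of 43 markers of 8 cell types were measured on both arrays, of which 2 passed 2-fold upward and 27 downward on the NYT array. Their summed scaled level was 910 on the NYT array and 1478 on the control array. The macrophage markers summed to 544 on the NYT array and 476 on the control array, a sum that Trem2 and Cd68 carried, with differences of 1.63 and 1.18. The other 6 macrophage markers stood below 0 and the list's median was -0.97, with Adgre1 at -1.01 and C1qa, C1qb and C1qc at -5.21, -3.74 and -3.58. The sums on the NYT and control arrays were 312 and 714 for neutrophils, and 26.8 and 194 for megakaryocytes. Most of the neutrophil sum came from S100a8 and S100a9, with differences of -1.32 and -0.25, while that list's median was -3.20. B cell markers summed to 21.5 on the NYT array and 25.4 on the control array, T and NK cell markers to 4.80 and 16.6, erythroid markers to 0.93 and 11.3, mast cell and basophil markers to 0.35 and 27.8, and stromal markers to 0.60 and 13.3. The median differences were -4.00 for megakaryocyte, -0.24 for B cell and -3.64 for T and NK cell markers. They were -3.39 for erythroid, -6.63 for mast cell and basophil, and -4.39 for stromal markers. Fcer1a, Ms4a2, Klrd1 and Pdgfrb were well above background on the control array alone, Klf1 on neither array, and Hbb-b1 had no probe. These shifts in cell markers move with every difference below, and their part in it was not tested. In such mixtures fewer cells of a type and less RNA per cell cannot be told apart.

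The synthetases had a higher median difference than all measured genes. All 20 were measured, with a median of 0.61 against 0.29, and 14 of them lay above the median of all genes. As scaled, 6 were at least 2-fold higher on the NYT array and none was lower by as much, where 11.2% and 11.0% of all genes were. Above 0 stood 19 of 20 as scaled, against 64.5% of all genes, and 5 of 20 with no scaling. The count of higher genes was 3 after loess and 0 with no scaling, and the median turned to -0.41 with no scaling and -0.57 with spike-in scaling. Relative to the median of all genes it was higher by 0.33 under each of these 2 settings and by 0.26 after loess. Without the filter on dim probes it was higher by 0.11, with 12 of 20 above the all-gene median. At 1.5-fold as scaled, 11 synthetases were higher and 1 lower, where 30.4% and 16.9% of all genes were, and 3 transporters were higher and 4 lower.

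Sars, the seryl-tRNA synthetase, had the largest difference of the group. Its intensity was 16929 on the NYT array and 9543 on the control array before scaling, and it was 3.60-fold higher after scaling. Aars, the alanyl-tRNA synthetase, whose promoter with 2 C/EBP-ATF matches is printed above, had 8588 on the NYT array and 5229 on the control array, 3.33-fold higher after scaling. Cars, the cysteinyl-tRNA synthetase, had 5974 on the NYT array and 4708 on the control array, 2.57-fold higher after scaling. For these 3 genes the dimmer NYT array was the brighter even unscaled, by 1.77-fold for Sars, 1.64-fold for Aars and 1.27-fold for Cars. Their differences exceeded those of 98.3%, 97.9% and 95.4% of measured genes. The Sars probe lies on chromosome 3 at 108229539 to 108229598, minus strand, and the Aars probe on chromosome 8 at 113579376 to 113579434, plus strand, on the build mm9 of the file headers. The second Aars probe did not pass the background flag on either array.

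Rars, Dars and Hars, for arginine, aspartate and histidine, were the other 3 synthetases past 2-fold as scaled. Rars had an intensity of 428 on the NYT array and 406 on the control array, a difference of 1.10 after scaling. Dars had 651 on the NYT array and 639 on the control array, a difference of 1.05. Hars had 1148 on the NYT array and 1149 on the control array, a difference of 1.02. Before scaling these 3 were thus nearly level on the arrays, and with spike-in scaling each stood slightly below 0. Dars and Hars lay within spot noise of the 2-fold mark. In all, 5 of 20 synthetases (Sars, Aars, Cars, Rars and Dars) were brighter on the NYT array with no scaling, where 10.7% of all measured genes were.

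Most other synthetases lay between the all-gene median and 2-fold as scaled, and below 0 without scaling. Farsb, the beta subunit of the phenylalanyl enzyme, differed by 0.98 as scaled and -0.04 unscaled, with an intensity of 3898 on the NYT array and 4012 on the control array. Eprs, which charges both glutamate and proline transfer RNA, had 877 on the NYT array and 1045 on the control array, 0.77 as scaled and -0.25 unscaled. Tars (threonine) differed by 0.67, Gars (glycine) by 0.62, Yars (tyrosine) by 0.61 and Nars (asparagine) by 0.52 as scaled, and by -0.35, -0.40, -0.41 and -0.50 unscaled. Gars was among the brighter genes, with 19271 on the NYT array and 25419.7 on the control array. Tars had 3581 on the NYT array and 4555 on the control array, and Nars 3077 and 4341. Yars was dim, with 36.8 on the NYT array and 48.9 on the control array. Farsa, the alpha subunit of the phenylalanyl enzyme, stood at 0.39 with its brightest probe and at -0.37 and -0.57 with the others. The brightest had 2559.7 on the NYT array and 3964 on the control array, the next 427 and 1121, and the dimmest 37.9 and 114. Its direction thus differs between probes, and its partner Farsb has 1 probe alone. Wars, the tryptophanyl enzyme, which interferon gamma induces, had 7753 on the NYT array and 12349 on the control array, a difference of 0.35, and its dimmer probe gave -0.03.

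Iars, Qars, Kars, Lars and Mars, for isoleucine, glutamine, lysine, leucine and methionine, lay between 0 and the all-gene median as scaled. Their differences were 0.21, 0.20, 0.18, 0.13 and 0.05. All 5 were dimmer on the NYT array before scaling. Iars had an intensity of 2315 on the NYT array and 4047 on the control array, and Qars 8033 and 14187. Kars had 5784 on the NYT array and 10327 on the control array, Lars 2527 and 4681, and Mars 852 and 1663. All 5 belong to the multi-synthetase complex. Vars, the valyl-tRNA synthetase, was the 1 synthetase below 0 as scaled, at -0.64, with 670.0 on the NYT array and 2112 on the control array. It remained below 0 under all 10 other scaling, background, filter and probe settings, which gave values from -1.82 to -0.62.

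**Figure D1:**
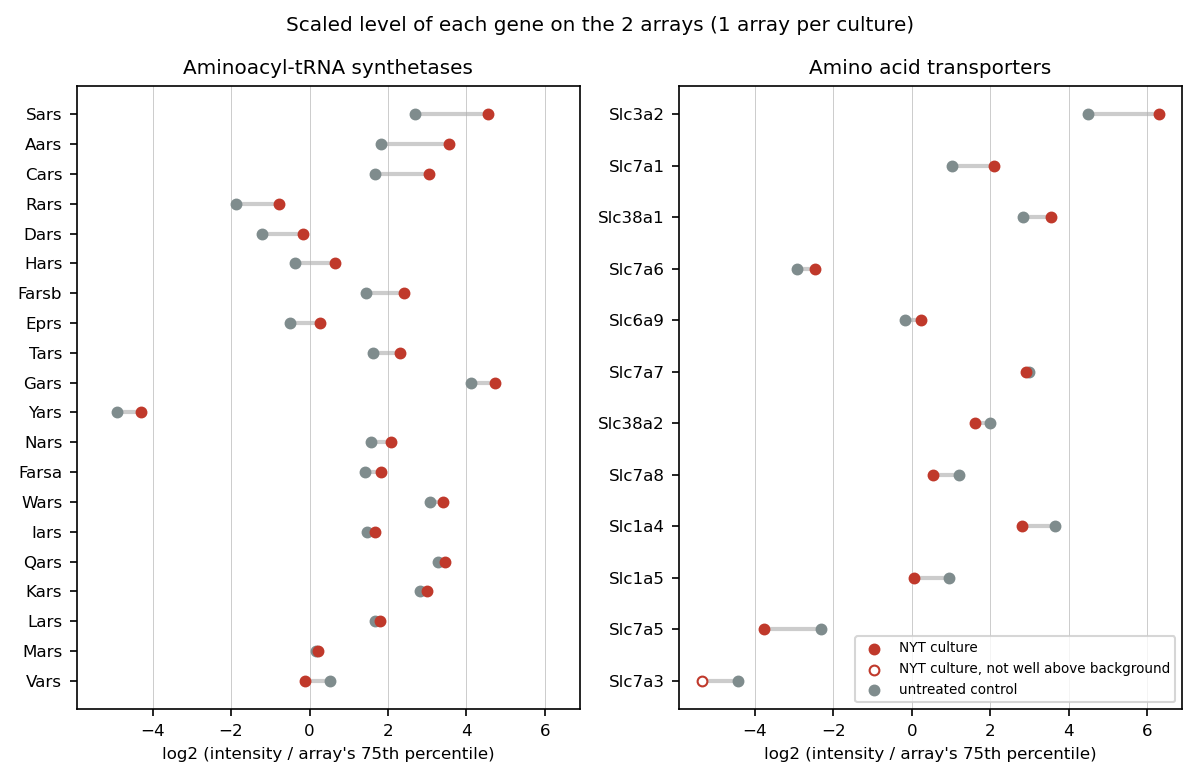
Scaled level of each gene on the NYT array and on the control array, as log2 of intensity over the array's 75th percentile, with a grey bar joining the 2 values. All synthetases but Vars have the NYT point on the right as scaled (without scaling 5 of 20 do), while 5 of 11 transporters measured on both arrays do (without scaling 2 do). Slc7a3 was not well above background on the NYT array.

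The synthetases of the multi-synthetase complex stood lower than those outside it. The 8 in the complex (Dars, Eprs, Iars, Kars, Lars, Mars, Qars and Rars) had a median of 0.21 as scaled and -0.81 unscaled, and 3 of them, Rars, Dars and Eprs, lay above the all-gene median. The 12 outside the complex had a median of 0.65 as scaled and -0.37 unscaled, and 11 lay above the all-gene median, the exception being Vars. After loess the medians were -0.11 in the complex and 0.32 outside it. The scaffold genes of the complex, Aimp1, Aimp2 and Eef1e1, differed by 0.57, 0.44 and 0.95 as scaled, with a median of -0.45 unscaled.

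Synthetases fall into 2 unrelated classes by the fold of their active site. The 10 of class II had a median of 0.83 as scaled and -0.19 unscaled, with 9 above the all-gene median and Kars below it. The 9 of class I had a median of 0.21 as scaled and -0.81 unscaled, with 4 above. Class and complex overlap, since most class II enzymes listed here lie outside the complex, so these contrasts are not separate. Eprs holds an active site of each class and is in neither count.

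A list of 12 synthetases often named as ATF4 targets had a median near that of the other 8. Their median was 0.61 and that of the rest 0.68 as scaled, or -0.41 and -0.34 unscaled. Above the all-gene median lay 9 of the 12 and 5 of the 8. As scaled 3 of the 12 and 3 of the 8 were at least 2-fold higher, against 11.2% of all genes. After loess the counts were 3 and 0, against 5.59% of all genes, and with normexp 3 and 1, against 8.76%. Sars, Aars and Cars, the synthetases that stayed higher under all 10 other settings, are among the 12. By promoter, the 5 synthetases with a C/EBP-ATF match in the window had a median of 0.62, ranging from 0.21 for Iars to 1.74 for Aars. The 8 without a match had a median of 0.58, ranging from 0.05 for Mars to 1.85 for Sars.

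**Figure D2:**
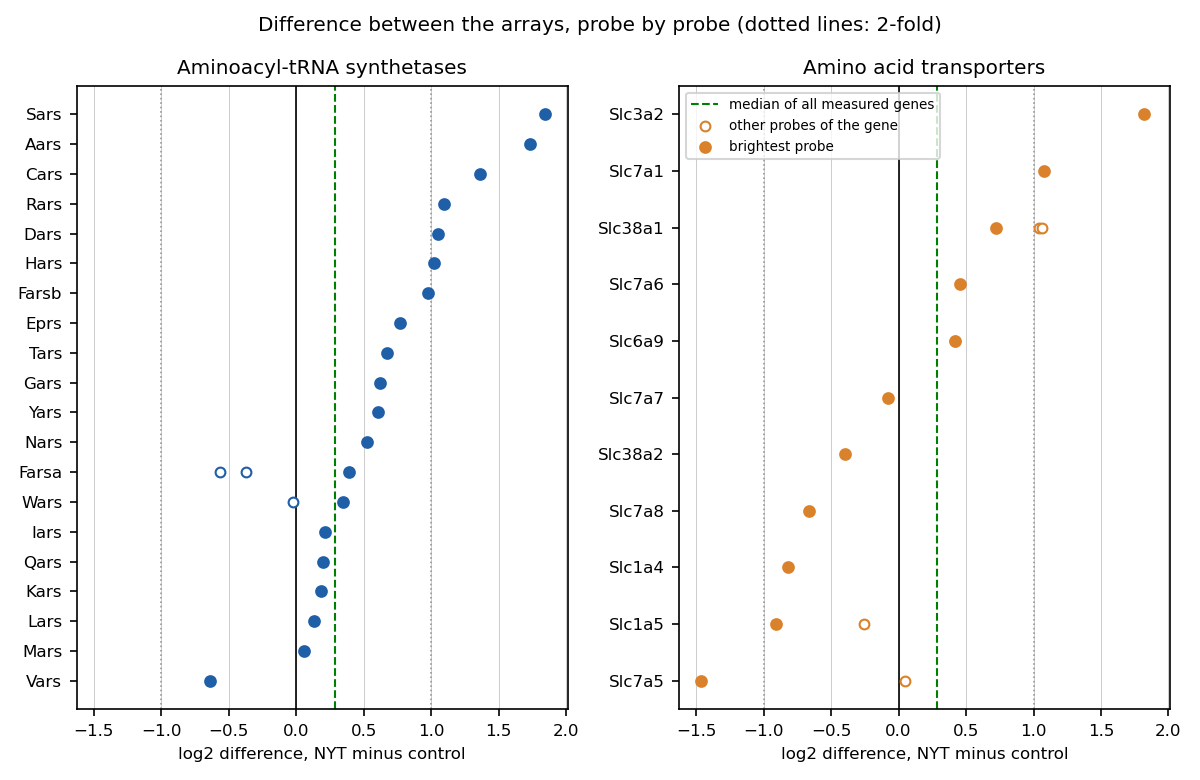
Log2 difference, NYT minus control as scaled, for each probe well above background on both arrays. Filled points are the brightest probe of a gene, open points its other probes, the dashed line the median of all measured genes (0.29) and the dotted lines 2-fold. The open points of Farsa lie left of 0, and that of Slc7a5 lies near 0, far from its filled point at -1.46. With no scaling every point moves left by the same amount.

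The transporters spread to both sides. Of 12 genes 11 were measured on both arrays, with a median of -0.08 as scaled, -1.10 unscaled and -0.44 after loess. As scaled 2 passed 2-fold upward and 1 downward, where 11.2% and 11.0% of all genes were, and 5 of 11 lay above the all-gene median. The synthetase median was 0.69 above the transporter median, a distance that a common scaling factor cannot change, and it lay between 0.69 and 0.85 under the 10 other settings. With no test this describes 2 arrays, and the ranges of the groups overlapped, from -0.64 to 1.85 for synthetases and from -1.46 to 1.82 for transporters.

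Slc3a2, the heavy chain that pairs with several light chains and carries them to the cell surface, was the transporter gene with the largest difference. Its intensity was 57595 on the NYT array and 33074 on the control array, 1.74-fold higher unscaled and 3.53-fold higher after scaling. Its probe covers 8782189 to 8782248 of chromosome 19 on the minus strand (mm9), and its difference exceeded that of 98.2% of measured genes. The light chains did not share this difference.

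Slc7a5, the light chain of the large neutral amino acid exchanger, had an intensity of 53.6 on the NYT array and 299 on the control array, a difference of -1.46. A second probe gave 62.1 on the NYT array and 122 on the control array, a difference of 0.04, so the probes disagree. The first lies at 124405136 to 124405195 and the second at 124430996 to 124431055 of chromosome 8, minus strand (mm9), that is upstream of the first. The mean of both probes was -0.71 and normexp background correction gave -0.69, both short of 2-fold. Slc7a8, another light chain for neutral amino acids, was printed in 10 spots. On the NYT array these ranged from 1024 through a median of 1069 to 1115, and on the control array from 3343 through 3405 to 3579.8. The spots of the arrays did not overlap unscaled, and the difference was -0.66 as scaled. Slc7a7 and Slc7a6, light chains that exchange cationic for neutral amino acids, differed by -0.08 and 0.46 as scaled and by -1.10 and -0.56 unscaled. Slc7a7 had an intensity of 5453 on the NYT array and 11668 on the control array, and Slc7a6 132 and 195. The cystine exchanger light chain Slc7a11, of the list of other transporters, stood at 0.00.

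Slc7a1, the main cationic amino acid transporter of most cells, had an intensity of 3099 on the NYT array and 2982 on the control array, a difference of 1.07. It was near level unscaled (0.06) and at -0.11 with spike-in scaling. Slc7a3, a related transporter, was well above background on the control array alone, with 17.9 on the NYT array and 68.4 on the control array, at least 1.76-fold lower. Of 19404 genes detected on at least 1 array, 3.77% were seen on the control array alone with a bound of 2-fold or more.

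Both exchangers of small neutral amino acids stood below 0. Slc1a5, known for glutamine uptake, had an intensity of 754 on the NYT array and 2875 on the control array, a difference of -0.91, with -0.25 by its dimmer probe. Slc1a4, which carries alanine, serine and cysteine, had 5149.9 on the NYT array and 18453 on the control array, a difference of -0.82. Its promoter holds a C/EBP-ATF match like that of Aars, whose difference has the opposite sign as scaled. The sodium-coupled neutral transporters differed in sign, with Slc38a2 at -0.40 and Slc38a1 at 0.72 by its brightest probe and 1.06 and 1.04 by the others, although with no scaling the brightest Slc38a1 probe stood at -0.30. Slc38a2 had an intensity of 2214 on the NYT array and 5904 on the control array. The brightest Slc38a1 probe had 8534 on the NYT array and 10484 on the control array, while the dimmer ones had 1186 and 1171, and 159 and 154, and so were near level. Slc6a9, a glycine transporter, differed by 0.42 by both of its probes as scaled. The brighter of them had 859.9 on the NYT array and 1306 on the control array, -0.60 unscaled.

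**Figure D3:**
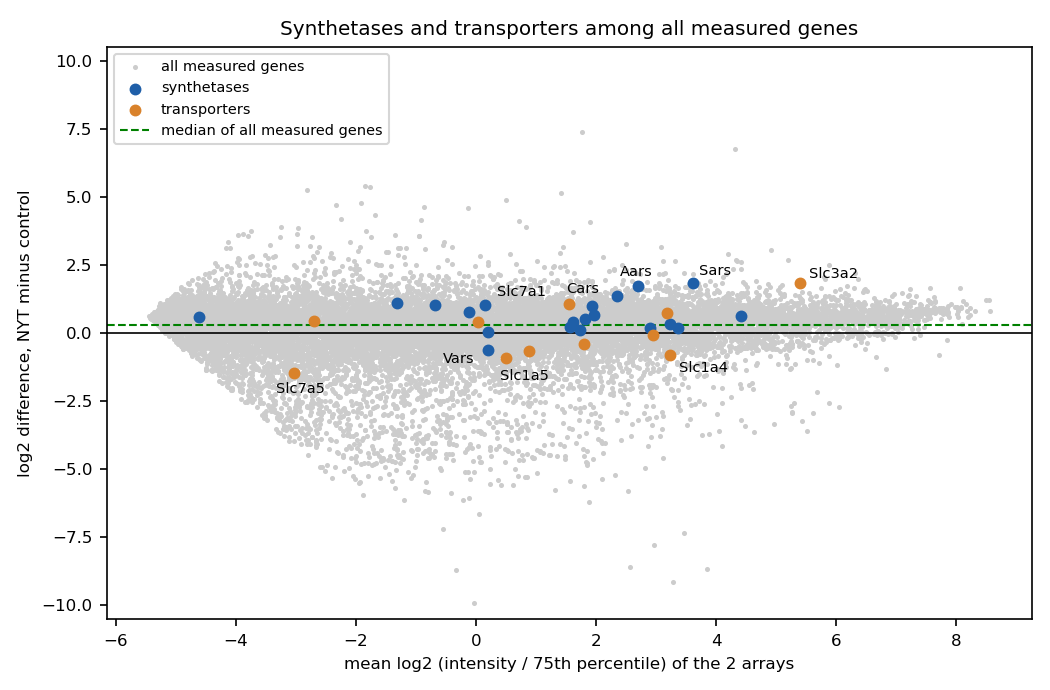
Log2 difference, NYT minus control as scaled, against mean brightness for all 16996 measured genes (grey), with synthetases in blue and transporters in orange. Sars, Aars, Cars and Slc3a2 lie above at least 95% of all measured genes, and Slc7a5 is a dim gene in the wide lower part of the cloud. All points move down together with no scaling.

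Across the 10 other settings 11 of 31 measured genes kept their sign. The 4 that stayed higher on the NYT array were Sars, Aars, Cars and Slc3a2, with lowest values of 0.66, 0.55, 0.18 and 0.63, all under spike-in scaling. The 7 that stayed lower were Vars, Slc1a4, Slc1a5, Slc7a5, Slc7a7, Slc7a8 and Slc38a2, of which 6 are transporters. These are all the measured genes of the 2 groups below 0 as scaled. The all-gene median moved by -1.18 with spike-in scaling and -1.02 with no scaling, but by 0.06 with normexp. A downward shift cannot turn the lower genes, so their keeping the sign says less than that of the 4 higher genes.

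**Figure D4:**
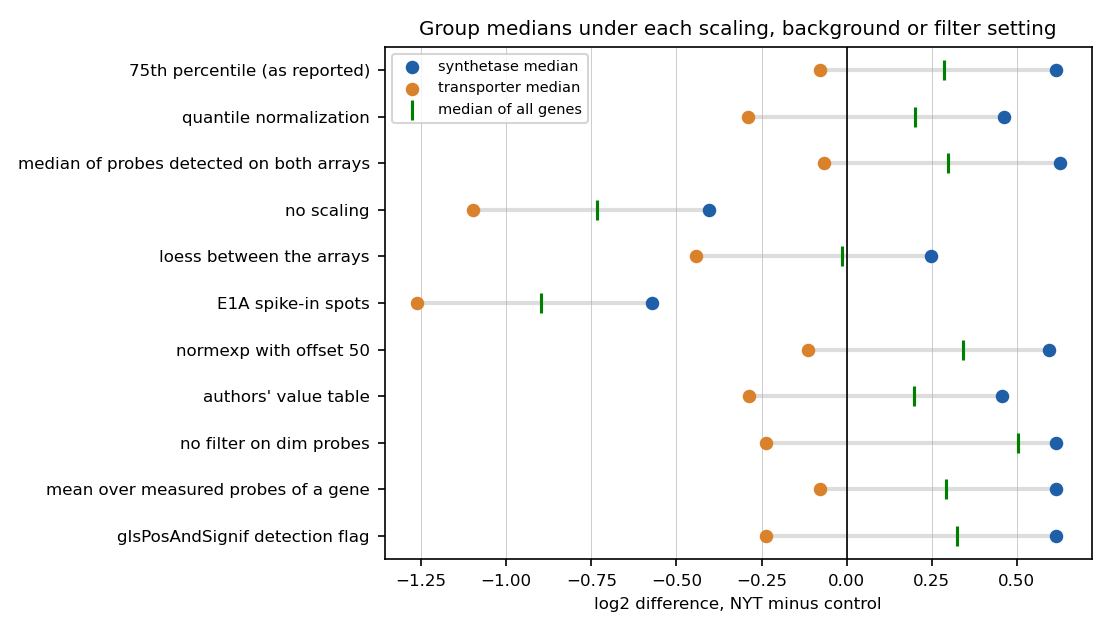
Median log2 difference, NYT minus control, of the synthetases (blue), the transporters (orange) and all genes (green bar) under each setting. The synthetase median lies right of the transporter median in every setting and right of the all-gene median too, but falls below 0 with no scaling (-0.41) and with spike-in scaling (-0.57).

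Genes of the same pathway were described from lists. Of 17 mitochondrial synthetases, which charge transfer RNA inside mitochondria, 16 were measured and none was past 2-fold in either direction, where 22.2% of all genes were. With no scaling 1 and with spike-in scaling 3 were at least 2-fold lower. Their median was 0.32 as scaled and -0.70 unscaled, near the all-gene median, and Yars2, Sars2 and Iars2 led with 0.79, 0.73 and 0.65. A second Iars2 probe gave 1.38, and the mean of its probes, 1.02, was just past 2-fold. The other plasma membrane transporters had a median of 0.25 as scaled and -0.77 unscaled over 9 measured of 20 genes. Slc36a4, an amino acid transporter of the proton-coupled family, differed by 1.61 (1.78 by its other probe) and Slc7a2, a cationic transporter, by 0.92. Slc7a2 was dim, with 32.4 on the NYT array and 34.6 on the control array, and stood at -0.10 unscaled. Slc43a1, a facilitator of large neutral amino acids, differed by -2.07 (-0.54 with normexp). For Slc1a3, a glutamate transporter, the bound was at least 4.58-fold lower as scaled. Slc38a3, a glutamine transporter detected on the NYT array alone, was at least 1.68-fold higher as scaled. Leaving out the scaling shifts log2 differences by -1.02, more than this bound, so no bound for Slc38a3 remains unscaled. Lysosomal transporters had a median of 0.60 over 8 of 9 genes as scaled and -0.42 unscaled. The list holds amino acid transporters and also Slc29a3, a nucleoside transporter, and Slc17a5, a sialic acid transporter. Their differences, 0.58 and 0.62, are the middle values that set this median. Other probes gave 1.70 for Slc29a3 and 0.93 for Slc17a5, and with the mean over probes the list median was 0.87. Slc66a1, Slc38a7 and Ctns, the cystine exporter of lysosomes, stood at 1.15, 1.08 and 0.97. Slc7a14 of that list was at least 7.01-fold lower.

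Genes of the amino acid response had the highest median of the lists, 1.01 over 13 genes, with 7 at least 2-fold higher and 2 lower, where 11.2% and 11.0% of all genes were. With no scaling the median was near 0 and 2 genes were higher and 3 lower. Atf5, a transcription factor translated under stress, differed by 3.05, Trib3, a pseudokinase target of ATF4, by 2.92 and Asns, which makes asparagine, by 1.94. Atf4 itself differed by 1.12 as scaled and 0.10 unscaled. The 2 lower genes were Vldlr, a lipoprotein receptor, at -2.84, and Ddit4, an inhibitor of mTORC1 named after its value was seen, at -1.57. The list of eIF2 kinases and phosphatases also holds Impact, which is neither. Of its 7 genes 3, Impact among them, were at least 2-fold higher and none lower as scaled, where 11.2% and 11.0% of all genes were. The count of higher genes was 1 with quantile normalization, loess or the authors' deposited table and 0 with no scaling or spike-in scaling, and the median was 0.38 as scaled and -0.64 unscaled. Ppp1r15a, which directs a phosphatase to eIF2, differed by 1.42, Impact, an inhibitor of GCN2, by 1.15, with 2.16 by its other probe. Eif2ak4 differed by 1.01 by its brightest probe, with 0.54 and 1.85 by its others. Unscaled, the brightest Eif2ak4 probe stood at -0.01.

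Amino acid synthesis genes had a median of 0.63 over 10 of 11 genes as scaled and -0.39 unscaled. Mthfd2, a mitochondrial folate enzyme, led with 2.83 and was 1.81 higher even unscaled, followed by Asns and by Gpt2, a mitochondrial alanine aminotransferase, at 1.23. Pycr1, which makes proline, was detected on the control array alone and was at least 1.92-fold lower. Among genes of amino acid sensing by mTORC1, with a median of 0.48 as scaled and -0.54 unscaled, 2 of 16 were at least 2-fold higher, a share close to the 11.2% of all genes, and none lower, against 11.0%. Rragd, a Rag GTPase, had an intensity of 325 on the NYT array and 53.2 on the control array, a difference of 3.63, and Lamtor3, of the complex that anchors Rag GTPases at lysosomes, differed by 1.57. The other Lamtor3 probes gave 0.85 and 0.49, and the mean of the 3, 0.97, fell short of 2-fold. Rraga, another Rag GTPase, stood at 0.87. Rragb, also a Rag GTPase, was detected on the control array alone, with no fold to give. Translation factors had a median of 0.72 as scaled, 0.24 with quantile normalization and -0.30 unscaled, with Eif4a1, Eif2s2 and Eef1g at 1.21, 1.18 and 0.82. The other probes gave 0.82 for Eif2s2, and 0.49 and 0.30 for Eef1g. Interferon response genes, listed because interferon induces Wars, had a median of -2.20 as scaled and -3.22 unscaled over 10 of 12 genes, of which 8 were at least 2-fold lower and none higher, where 11.0% and 11.2% of all genes were. Cxcl10, Gbp2 and Irf1 differed by -4.07, -3.24 and -2.68, and Cxcl9 was at least 52.4-fold lower. Wars, at 0.35 by its brightest probe, was thus on the other side of 0 as scaled. Its dimmer probe gave -0.03 as scaled, and the brightest stood at -0.67 unscaled.

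**Figure D5:**
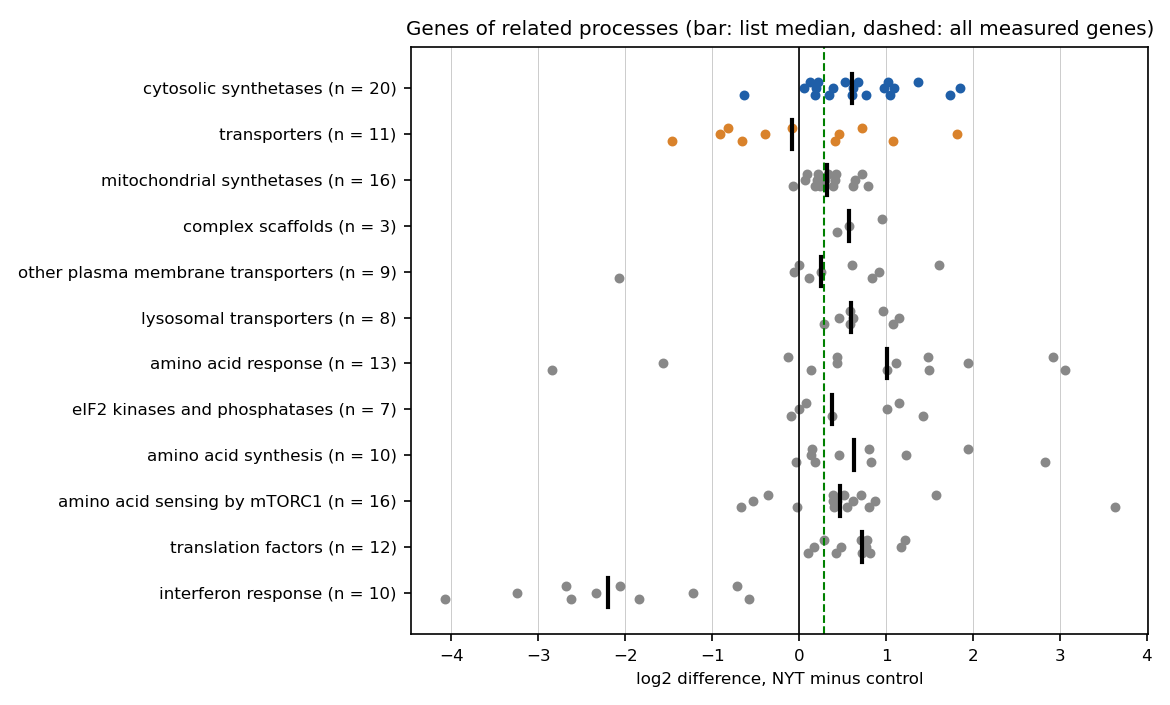
Log2 difference, NYT minus control as scaled, of each measured gene in the synthetase, transporter and related lists, with a black bar at the list median and a dashed line at the median of all measured genes. The amino acid response list has the highest median (1.01) and the interferon response list the lowest (-2.20). With no scaling every point moves left alike, and the interferon list stays lowest.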

How the data were processed

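The authors deposited the scanner output of 2 one-colour Agilent arrays, with an intensity per spot. The file headers give Feature Extraction version 10.7.1.1 and the submitters' processing notes 9.5.1.1. Spot intensity had been detrended within each array, per the file headers, with no scaling between arrays. The 0 or 1 flags of the same files mark spots well above background and outliers. The value table deposited by the authors is also an intensity, on a linear scale. The kit used for RNA extraction is not settled, since the labels and the design text differ on it.

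Spots with outlier flags (165 NYT, 258 control) were left out, no spot was saturated, and log2 intensities were averaged per probe and reduced by the log2 of the array's 75th percentile (Python 3.11.15, numpy 2.4.6, pandas 2.3.3). A probe was well above background when over 50% of its spots were. A gene detected on 1 array was given a bound against the dim array's detection limit (its lowest detected probe) or the probe's own signal, whichever was higher. Probes were named by accession, symbol or synonym through RefSeq GRCm38.p6, otherwise by the file. Loess and normexp (offset 50) used limma 3.58.1 in R 4.3.3. Scaling, background, filter, probe and detection alternatives are given in the closing section, with the gene's probe kept except where the filter or probe rule changed. The counting step was tested on simulated data. The number of arrays, 1 per culture, limits the precision. From each list up to 3 measured genes with the largest absolute difference were named, plus Atf4, Eif2ak4, Asns and Trib3. Slc7a11, Ddit4 and the listed genes detected on 1 array alone were named after their values were seen. The genes, lists and alternatives were chosen with earlier results of these data known.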

Additional observations from a re-analysis of the deposited data

How the results depend on the processing

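No paired analysis was possible because there was 1 array per culture, and for the same reason none could be left out. With no scaling the synthetase and transporter medians were -0.41 and -1.10, with 0 synthetases at least 2-fold higher and 1 lower, and 0 transporters higher and 6 lower. With spike-in scaling they were -0.57 and -1.26, with 0 synthetases higher and 4 lower, and 0 transporters higher and 6 lower. After loess they were 0.25 and -0.44, with 3 synthetases higher, 1 transporter higher and 3 lower. With quantile normalization they were 0.46 and -0.29, a distance of 0.75, with 1 transporter higher and 2 lower. The authors' deposited value table, itself quantile normalized, gave 0.46 and -0.29, with 1 transporter higher and 2 lower. With no filter on dim probes, and with the other detection flag, the transporter median was -0.24 and the distance 0.85, because Slc7a3 entered. With normexp 0 transporters were at least 2-fold lower, and with the mean over probes also 0, as Slc7a5 fell short. At 1.5-fold 11 synthetases were higher and 1 lower, where 30.4% and 16.9% of all genes were, and 3 transporters were higher and 4 lower.

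Single genes past 2-fold turned below 0 in some settings. With spike-in scaling these were Dars (-0.14), Hars (-0.17), Rars (-0.089), Slc7a1 (-0.11), Slc66a1 (-0.034), Slc38a7 (-0.10), Impact (-0.035), Eif2ak4 (-0.18), Eif2s2 (-0.0087) and Atf4 (-0.068), and with no scaling Hars (-0.0012) and Eif2ak4 (-0.013). Of the other values of named genes, 292 stayed within spot noise of the value reported and 316 moved further. The constant shift between arrays makes the turns with no scaling and spike-in scaling, and the cause of the other changes was not tested. Dim probes such as those of Slc7a5, Slc43a1 and Yars lie nearest to background, which limits their values.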
